A study of Mus musculus with 2 samples.

Results

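The subject was the mesenchyme of a PdgfraCreERT library from the regenerating mouse digit tip, divided by whether a cell carried mRNA of Lmx1b. Mesenchymal cells were chosen by a rule on measured counts. A barcode needed at least 500 detected genes, at most 10% of its unique molecular identifiers (UMIs, each marking 1 captured mRNA molecule) from mitochondrial genes, and at least 10000 UMIs. It also needed at least 30 UMIs of Col1a1, Col1a2 and Col3a1 together per 10000, and at least 1 Pdgfra UMI. The rule kept 585 of the 5032 barcodes of the library, and the whole series held 11023 barcodes. At least 1 Lmx1b UMI was found in 144 of the 585 cells, called expressing here, and none in the other 441, called non-expressing whatever their tdTomato content.

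The mice were adults of 10 to 12 weeks with the genotype PdgfraCreERT;R26-LSL-TdT, in which tamoxifen lets Cre act in cells of the Pdgfra lineage and turns on the tdTomato reporter at the Rosa26 locus. They received 3 mg tamoxifen per day for 4 days by intraperitoneal injection, the digits were amputated 10 days later, and the tissue distal to the cut was taken 14 days after amputation. A second library came from Lmx1bCreERT2;R26-LSL-TdT mice under the same schedule and served as the only repeat of the split. Cells were released in 280 µg/ml Liberase, passed through a 20 µm strainer and captured with a 10x Genomics 3′ kit, with no sort given in the labels. How many mice were pooled in a library, their sex and the structure of the Cre alleles are not given in the sources used here, and each line had 1 library. Cells of 1 library are not replicates, so no test was made, and every interval covers counting error only, leaving out how cells and animals vary.

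Lmx1b is a LIM homeodomain transcription factor that specifies the dorsal side of the limb in the embryo. Loss of its function in mouse and human leaves the nails, a dorsal structure, absent or malformed. Pdgfra, a receptor for platelet-derived growth factor, marks much of the fibroblast-like mesenchyme of skin and bone. In the digit tip, mesenchyme beneath the nail epithelium supplies R-spondins and BMP ligands to the nail, while other mesenchyme of the regenerate forms new bone.

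The 2 sides differed in depth, and the expressing cells were the shallower ones. Their median was 23531.5 UMIs per cell (quartiles 17228 and 42873), against 32539 UMIs (23530 and 48376) in non-expressing cells, with 5411015 UMIs in all against 18066325. Comparisons were therefore repeated after pairing every expressing cell with the non-expressing cell nearest in total UMIs, which gave 144 cells with a median of 23519.5 UMIs. Median genes per cell were 5132 and 5440, and median mitochondrial shares 6.43% and 6.10%. The libraries shared 10 barcode sequences, 1 of them among the expressing cells. An Xist UMI was present in 0 expressing cells and 1 non-expressing cell, whereas in the Lmx1b library 13 of 45 expressing and 30 of 847 non-expressing mesenchymal cells had one.

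Values that chose the cells are given as a description only. Levels are given as CPM, a gene's UMIs per 1e+06 UMIs of the cells summed. Pdgfra stood at 242 CPM in expressing and 129 CPM in non-expressing cells, and the 3 collagens at a median of 264 and 675 UMIs per 10000. Just outside the rule, 259 barcodes passed the collagen limit with no Pdgfra UMI, and 5 of them (1.93%) had an Lmx1b UMI. Just inside it, 89 cells had exactly 1 Pdgfra UMI, and 4 of those (4.49%) had one of Lmx1b. Among 103 barcodes that failed only the limit of 10000 UMIs, 6 (5.83%) had an Lmx1b UMI at a median of 2312 UMIs. Of 25 barcodes with Pdgfra but too little collagen, 1 had it.

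The label was checked on markers outside the rule. All 10 genes of a mesenchymal list that was not part of the rule (Prrx1, Prrx2, Twist1, Twist2, Lum, Dcn, Pdgfrb, Col6a1, Col5a1 and Thy1) were measured, and their summed level had a median over cells of 18662 CPM in expressing and 14115 CPM in non-expressing cells. Markers of mast cells and macrophages on the expressing side came largely from single cells: 1 cell held 98.9% of the Mcpt4 UMIs and 1 cell held 81.2% of the C1qa UMIs, and the summed level of either list had a median of 0 CPM over cells on both sides. On the non-expressing side 1 cell held 82.4% of the Krt14 UMIs. Summed endothelial markers stood at 198 and 253 CPM, and mural markers at 1158 and 1559 CPM, in expressing and non-expressing cells. Their part in the gene differences was measured only by leaving out 2 clusters led by such genes, which kept all 28 genes named below at 1.5-fold or more, Krt42 at a smaller difference.

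Lmx1b was sparse in each cell. A single UMI was found in 71 cells, 2 in 39 cells, 3 in 12, 4 in 12, 5 in 6, 6 in 2, 7 in 1 and 8 in 1, for 290 UMIs and 53.6 CPM on the expressing side. The share of expressing cells was 24.6% (exact 95% binomial interval 21.2 to 28.3). It did not follow depth: 39.5% of the 195 shallowest cells, 14.4% of the 195 in the middle and 20.0% of the 195 deepest had an Lmx1b UMI. After each cell was thinned to 10000 UMIs the share was 14.0% (11.3 to 17.1). Droplets also catch free RNA, and as a background endothelial and macrophage barcodes without a Pdgfra UMI were counted. An Lmx1b UMI was found in 1 of 162 endothelial barcodes (0.617%, median 17642 UMIs) and 2 of 97 macrophage barcodes (2.06%, median 22934 UMIs), the same after thinning. The intervals of both, up to 3.39% and 7.25%, ended below that of the mesenchymal share, thinned or not. Mesenchymal cells had to carry Pdgfra and background barcodes to lack it, which can leave out barcodes with stray mesenchymal RNA. The gap may therefore be set in part by selection, and the background in barcodes that carry Pdgfra was not measured. A cell without an Lmx1b UMI may still hold the transcript below what this depth detects.

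**Figure D1:**
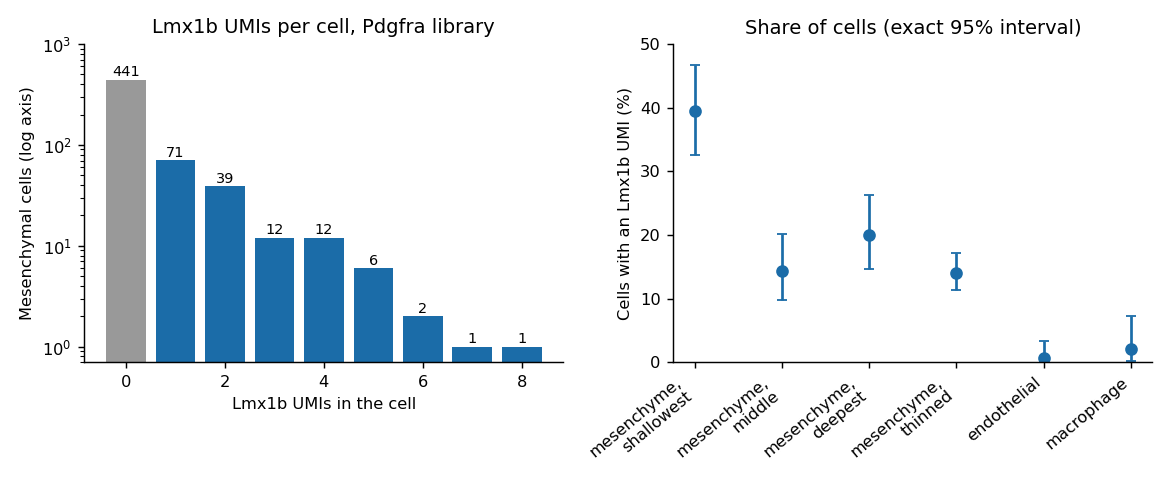
Left, number of mesenchymal cells of the Pdgfra library (log axis) by Lmx1b UMIs in the cell, grey for 0. Right, percent of cells with an Lmx1b UMI and its exact 95% interval in the 195 shallowest, 195 middle and 195 deepest mesenchymal cells, in all 585 after thinning to 10000 UMIs, and in endothelial and macrophage barcodes without a Pdgfra UMI. The shallowest cells had the largest share, 39.5%, and endothelial and macrophage barcodes had 0.617% and 2.06%.

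The expressing cells were enriched in labelled cells. At a level of 1600 CPM tdTomato, 139 of 144 expressing cells (96.5%, interval 92.1 to 98.9) and 345 of 441 non-expressing cells (78.2%, 74.1 to 82.0) were labelled. The median tdTomato level was 3460 CPM against 2596 CPM. In the Lmx1b library the same split gave 42.2% (27.7 to 57.8) and 4.13% (2.89 to 5.70).

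Clustering the 585 cells on their variable genes placed most Lmx1b in a single group. Cluster 1, led by Cyp2f2, Pcsk2, Sfrp2, Epha5 and Cck, held 96 cells, of which 77 (80.2%, interval 70.8 to 87.6) had an Lmx1b UMI, and it took in 53.5% of all expressing cells. Lmx1b stood at 97.5 CPM there, and after thinning 63.5% of its cells had a UMI, although its median depth of 17776 UMIs was below that of the other 8 clusters. Cluster 4, led by Col14a1, Lgr5, Bdnf and Fgf10, had the next highest level, 16.8 CPM, with 14 of 74 cells (18.9%). Cluster 3, led by Lyz2, H19 and Ogn, had 17 of 93 cells (18.3%) and 6.92 CPM. Cluster 5, led by Gal, Chad, Ihh, Dkk1 and Col2a1 with the osteocyte genes Phex and Dmp1, had 15 of 94 cells (16.0%) and 4.01 CPM, and its expressing cells were unusually deep, with a median of 100298 UMIs against 47012 in the rest of that cluster.

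The remaining clusters each held under 10 expressing cells. Cluster 0 was led by the mural genes Gja4 and Myh11. Before thinning it had the next highest share after cluster 1, 7 of 35 (20.0%, interval 8.44 to 36.9), at 6.12 CPM. Its median depth was 47900 UMIs, and after thinning its share was 0%. Cluster 2, led by the mitotic gene Cenpf and by Mt4, had 9 of 60, and cluster 8, led by the endothelial genes Aplnr and Emcn, 3 of 25. Cluster 7, led by Adamts18 and C1qtnf3, had 2 of 72 cells (2.78%, interval 0.338 to 9.68). Cluster 6, led by Angpt2 and Csmd1, had 0 of 36, with an exact upper bound of 9.74%. After thinning, the next highest shares below that of cluster 1 were 12.2% in cluster 4 and 8.60% in cluster 3. Clusters 5, 2 and 7 then had 2.13%, 1.67% and 1.39%, and clusters 0, 6 and 8 had 0%. These shares were below 3.39% and 7.25%, the upper ends of the intervals of the thinned endothelial and macrophage barcodes. The gap from that background was therefore seen for all mesenchymal cells pooled and not for each cluster. The median Lmx1b level of an expressing cell was 112 CPM in cluster 1 and 27.3 CPM outside it. The clusters are described by number, and their leading genes are no finding, since the grouping was made on variable genes of these same cells.

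**Figure D2:**
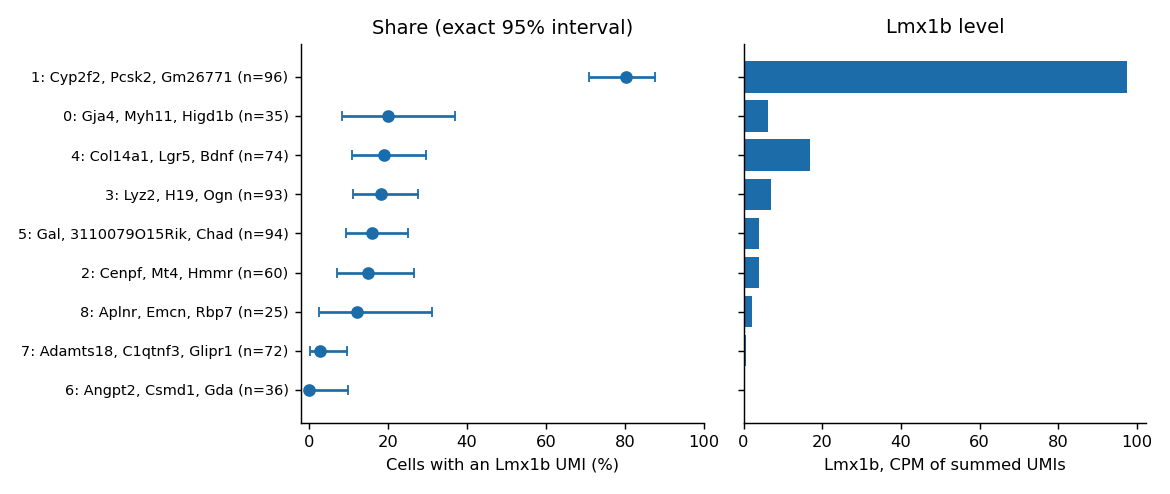
Percent of cells with an Lmx1b UMI with its exact 95% interval (left) and Lmx1b level in CPM of summed UMIs (right) in each of the 9 clusters, labelled by number, leading genes and number of cells. Cluster 1 stands at 80.2% and 97.5 CPM, and the next highest level is 16.8 CPM in cluster 4.

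Across all genes, UMIs were summed over the cells of each side. A gene counted as measured at a mean of at least 5 CPM over the sides, and as higher or lower at 1.5-fold or more on log2(CPM + 1). Of 10179 measured genes, 801 (7.87%) were higher and 324 (3.18%) lower in expressing cells. After depth matching, of 10233 measured genes 803 (7.85%) were higher and 359 (3.51%) lower. The median over all measured genes was a log2 difference of 0.07, so list medians below are read against that. In the Lmx1b library, where 45 cells with 1295582 UMIs stood against 847, 2127 of 10104 genes (21.1%) were higher and 762 (7.54%) lower, and the median was 0.21.

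The genes named as highest in expressing cells are of several kinds. Dio3, the deiodinase that inactivates thyroid hormone, stood at 45.5 against 1.55 CPM, 29.3-fold (95% counting interval 19.8 to 45.1). Cyp2f2, a cytochrome P450 monooxygenase, was 18.7-fold higher (16.5 to 21.2) at 318 against 17.1 CPM. Epha5, an ephrin receptor that guides axons, was 13.2-fold higher (11.9 to 14.7) at 313 against 23.7 CPM. Sema3a, a secreted repellent of growing axons, stood at 47.3 against 3.87 CPM, 12.2-fold (9.34 to 16.1). These genes were carried by a part of the expressing cells: Dio3 was detected in 38.9% of them and in 3.40% of non-expressing cells, and Epha5 in 67.4% and 15.2%. After depth matching Dio3 was 17.4-fold higher (10.2 to 32.3), Cyp2f2 8.94-fold (7.70 to 10.4), Epha5 6.01-fold (5.29 to 6.85) and Sema3a 15.9-fold (9.58 to 28.2). All 14 genes named here as higher were also 1.5-fold higher after depth matching, since that was part of how they were selected.

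Rspo4 and Sfrp2 both encode secreted regulators of Wnt signalling. Rspo4, the R-spondin whose loss in humans leaves the nails absent, stood at 72.8 against 5.98 CPM, 12.2-fold (9.82 to 15.2). Its median over expressing cells was 70.7 CPM with quartiles of 0 and 206, while the upper quartile of non-expressing cells was 0. Sfrp2, a Frizzled-related protein that binds Wnt ligands, stood at 1814 against 187 CPM, 9.68-fold (9.31 to 10.1), with a median of 937 CPM over expressing and 0 over non-expressing cells. After depth matching the folds were 7.66 (5.71 to 10.5) and 4.51 (4.30 to 4.72). The ranges of single cells overlapped for both, since the highest non-expressing cell had 806 CPM of Rspo4 and 25786 CPM of Sfrp2.

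Apod, a lipocalin that carries small lipids, was the most abundant of these genes at 5042 against 516 CPM, 9.77-fold (9.55 to 10.0). It was detected in 99.3% of expressing and 88.7% of non-expressing cells, and its quartiles were 1024 and 14359 CPM in the first and 47.7 and 439 CPM in the second. Corin, a serine protease that processes natriuretic peptide and is known from the dermal papilla, was 12.2-fold higher (9.08 to 16.5). Nrg2, a ligand of ErbB receptors, was 13.4-fold higher (10.8 to 16.6), and the noncoding RNA Snhg11 11.3-fold (8.98 to 14.2). Cntn1, a contactin of neural cell adhesion, Gpm6a, a neuronal membrane glycoprotein, Cck, the peptide cholecystokinin, and Rorb, an orphan nuclear receptor, lay between 9.29-fold and 11.5-fold. After depth matching these 8 genes lay between 4.53-fold (Cck) and 7.39-fold (Nrg2), with Apod at 6.10-fold and Corin at 5.76-fold. Emx2, a transcription factor described below, was 11.6-fold higher but under the 20 CPM limit for naming.

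Dio3, Cyp2f2, Epha5 and Rspo4 lie on 4 different chromosomes of mm10 (GENCODE vM21). Lmx1b itself occupies chr2:33560965-33640511 on the minus strand, Rspo4 chr2:151842927-151874668 on the plus strand, Dio3 chr12:110279068-110281097 on the plus strand, Cyp2f2 chr7:27119909-27133660 on the plus strand and Epha5 chr5:84054761-84417382 on the minus strand. The letters TAATTA, which read the same on both strands and are the core bound by many homeodomain proteins, were looked for in the 250 bases before the start of each gene in RefSeq's promoter table (GRCm38.p6), counting a gene if any of its listed starts had a match. They were present for 224 of 7877 measured genes with an entry (2.84%), for 2 of 13 of the higher genes, Epha5 and Gpm6a, and for 1 of 10 of the lower genes, Spp1. Both windows of the higher genes are shown because these genes were higher in the cells with Lmx1b, with the match in capitals. The Gpm6a window belongs to 1 of 2 listed starts, the other having no match. A match is a description of the letters and not a binding site.
Epha5, chr5:84417383-84417632, minus strand: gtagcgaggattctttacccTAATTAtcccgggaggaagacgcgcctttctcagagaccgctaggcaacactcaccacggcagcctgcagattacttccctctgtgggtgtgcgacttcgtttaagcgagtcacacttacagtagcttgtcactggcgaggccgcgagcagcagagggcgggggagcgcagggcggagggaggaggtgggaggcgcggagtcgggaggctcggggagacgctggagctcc
Gpm6a, chr8:54954478-54954727, plus strand: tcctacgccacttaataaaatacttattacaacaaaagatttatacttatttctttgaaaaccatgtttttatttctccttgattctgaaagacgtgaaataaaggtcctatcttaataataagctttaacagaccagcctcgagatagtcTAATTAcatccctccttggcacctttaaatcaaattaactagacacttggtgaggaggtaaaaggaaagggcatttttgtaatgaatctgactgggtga

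The genes lower in expressing cells included several of bone and joint. Ibsp, the bone matrix protein sialoprotein, stood at 8425 against 17896 CPM, 2.12-fold lower (2.10 to 2.15), and Spp1, osteopontin, at 3809 against 7369 CPM, 1.93-fold lower (1.91 to 1.96). The medians over cells were closer than the sums, at 297 and 441 CPM of Ibsp, while the upper quartiles were 564 and 10549 CPM. Prg4, the lubricin of joint surfaces, was 2.77-fold lower (2.47 to 3.12) and C1qtnf3, a secreted C1q-like protein of growing cartilage, 2.58-fold lower (2.40 to 2.79). Lgr5, a receptor for R-spondins, was 3.33-fold lower (2.50 to 4.51) at 9.61 against 32.0 CPM. Krt42, a keratin known from nail, had the largest difference, 24.3-fold (14.4 to 44.6), but 1 cell held 21.2% of its UMIs on the non-expressing side. It is also a leading gene of cluster 8, and its log2 difference of -4.15 was -2.01 without clusters 0 and 8, -2.93 without suspected doublets and -0.09 with the same mix of clusters.

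Of the other lower genes, H19, an imprinted noncoding RNA, was 2.97-fold lower (2.37 to 3.77) and Npnt, a matrix ligand of integrins, 2.85-fold lower (2.19 to 3.78). Ifitm5, an osteoblast membrane protein, was 2.40-fold lower (2.16 to 2.66). Enpp1, which makes the mineralization inhibitor pyrophosphate, was 2.21-fold lower (1.89 to 2.58). Cd24a, Anxa8, Mpp6 and Cgref1 lay between 2.04-fold and 2.41-fold lower. Ibsp, Spp1 and Cgref1 depended on labelling: among cells with at least 1600 CPM tdTomato their log2 differences were -0.37, -0.42 and -0.48 and no longer reached 1.5-fold.

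The Lmx1b library gave the same direction for nearly all of these genes, as a second library with its own mice. All 14 higher genes were at least 1.5-fold higher there, with Rspo4 at 83.4 against 2.77 CPM, 30.1-fold (22.3 to 40.7), Corin 37.8-fold (26.6 to 54.1) and Apod 9.62-fold (9.29 to 9.96). Of the 14 lower genes, 13 were measured there and 11 of those at least 1.5-fold lower, among them Ibsp, 29.8-fold (27.8 to 32.1), and Spp1, 49.9-fold (44.1 to 56.6). Krt42 was below the measured level, and H19, 1.45-fold lower (1.02 to 2.14), and Lgr5, 1.48-fold lower (0.901 to 2.60), missed the 1.5-fold mark. Without the cells that had an Xist UMI, 32 cells stood against 817, and 12 higher and 12 lower genes reached it. Dio3 and Sema3a, with 4 UMIs each in those 32 cells, were then below the measured level, at 4.41 against 2.56 CPM and 4.41 against 2.23 CPM, and Cck was 1.56-fold higher (0.865 to 2.62). Rspo4 was 17.5-fold higher (11.3 to 26.8) in the same cells.

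**Figure D3:**
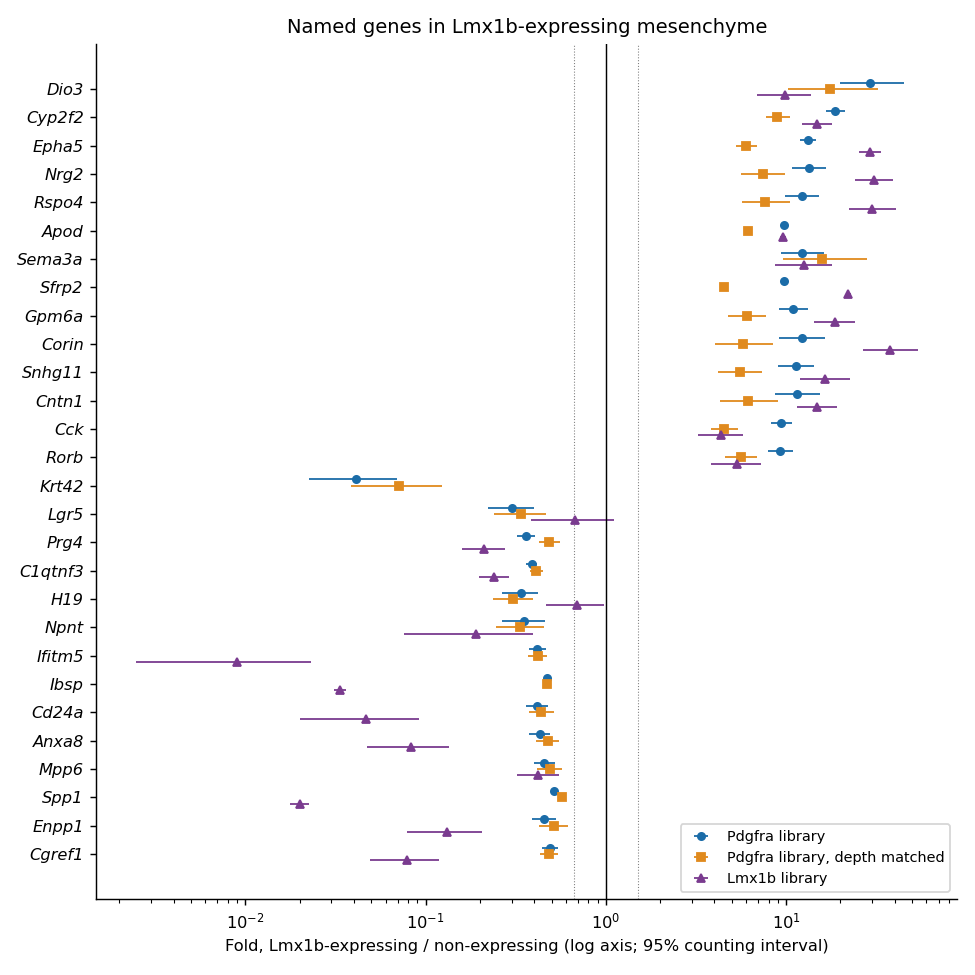
Fold of each named gene, expressing over non-expressing (log axis), with its 95% counting interval, for the Pdgfra library (circles), the same after depth matching (squares) and the Lmx1b library (triangles). Dotted lines mark 1.5-fold. All 14 upper genes lie to the right of them in every comparison, and Krt42 has no triangle because no UMI was found in the expressing cells of the Lmx1b library.

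The classes of 1, 2 and 3 or more Lmx1b UMIs give the levels in more detail, though the genes had been selected on the split between 0 and 1 or more. Rspo4 stood at 5.98 CPM in cells with 0 UMIs, 35.7 CPM with 1, 120 CPM with 2 and 138 CPM with 3 or more. Apod stood at 516, 2711, 7989 and 9083 CPM in the same order. Ibsp stood at 17896, 11701, 2636 and 4272 CPM. The order was not kept by all: of the 14 higher genes Dio3, Epha5, Sema3a, Snhg11, Cck and Rorb were lower with 3 or more UMIs than with 2, Sema3a at 42.0 against 87.7 CPM and Rorb at 131 against 243 CPM. Cluster 1 supplied 33.8% of the cells with 1 UMI, 74.4% of those with 2 and 70.6% of those with 3 or more, so cells of these classes also differed in cluster. They differed in depth too, with medians of 31902, 18893 and 22682.5 UMIs per cell in the same order. The median Lmx1b level of a cell was 31.3, 106 and 176 CPM.

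**Figure D4:**
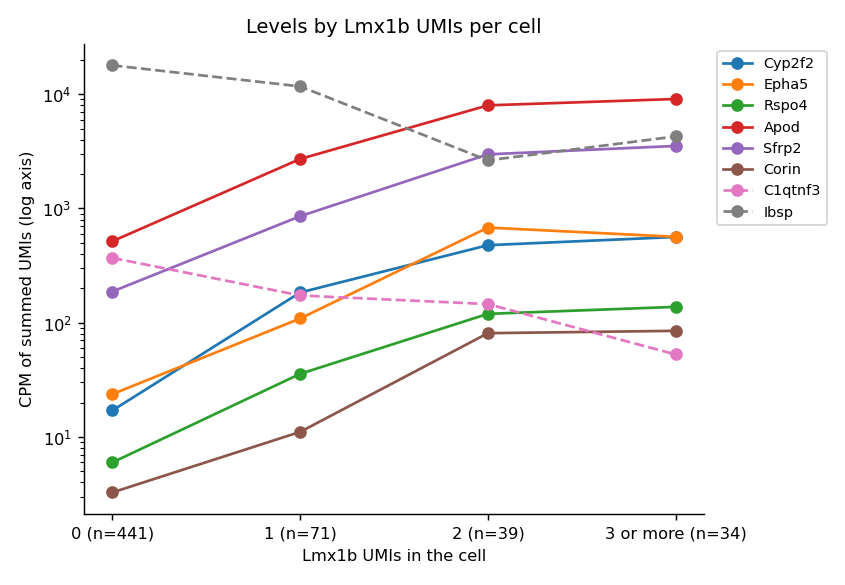
Level in CPM of summed UMIs (log axis) of 8 named genes by the number of Lmx1b UMIs in the cell, with the number of cells in each class. Solid lines are genes higher in expressing cells, and dashed lines C1qtnf3 and Ibsp, which were lower. Rspo4 goes from 5.98 to 138 CPM and C1qtnf3 from 369 to 52.7 CPM.

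Within clusters the differences were smaller in the group where Lmx1b was common. In cluster 1 the 77 expressing and 19 non-expressing cells had Rspo4 at 210 and 172 CPM, 1.22-fold (0.921 to 1.65), Corin at 110 and 99.6 CPM and Sfrp2 at 5565 and 6045 CPM. Dio3 and Sema3a still differed there, 3.31-fold (1.93 to 6.15) and 2.98-fold (1.77 to 5.43). In cluster 4 Rspo4 was 7.17-fold higher (4.16 to 12.6) at 94.6 against 13.2 CPM, Epha5 16.5-fold (11.6 to 24.0) and Apod 4.84-fold (4.53 to 5.17). In cluster 3 Rspo4 stood at 8.10 against 3.05 CPM, with an interval of 0.736 to 9.22, and Sfrp2 at 170 against 176 CPM. When both sides were weighted to the same mix of the 4 clusters with at least 10 cells on each, 5 of the 14 higher and 11 of the 14 lower genes still reached 1.5-fold. The higher genes that did were Dio3, Rspo4, Apod, Sema3a and Corin. Cyp2f2, Nrg2, Sfrp2, Epha5 and Cck, which fell short, are leading genes of cluster 1. The clusters were made on variable genes of these same cells, so the grouping itself can make such genes alike within a cluster.

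Gene lists for pathways and tissues are described by counts and medians, which carry no test. The nail mesenchyme list stood highest. Of its 11 members Hoxc13 and Spink6 were below the measured level, and of the other 9, 7 were higher and 0 lower, with a median log2 difference of 1.32 (1.10 depth matched, 1.95 in the Lmx1b library). Msx1, a homeobox gene of the nail bed and digit tip, had a median over cells of 1029 against 253 CPM and was 2.50-fold higher (2.40 to 2.59). Msx2 was 3.36-fold higher (2.71 to 4.17) and Rspo3 3.70-fold (3.29 to 4.15). Bmp5 was 1.89-fold higher and Crabp1, a retinoic acid binding protein, 2.03-fold. Wif1, a Wnt inhibitor, at 319 against 324 CPM, and Mme, at 27.9 against 28.9 CPM, were nearly level. Weighted to the same mix of clusters, the list's median was 0.67, and within clusters it ran from 0.29 among the cells of cluster 1 to 0.83, 1.03 and 1.73 in those numbered 3, 4 and 5. Over all measured genes the medians in clusters 1, 3, 4 and 5 were -0.001, 0.004, 0.06 and 0.22. In cluster 5, 2095 of 9452 measured genes were higher and 455 lower. Other lists lay far from 0 there too, dermal and adventitial fibroblast genes at 1.89 and osteogenic genes at -0.71.

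Wnt signalling components differed in both directions. Of 9 measured Wnt ligands and R-spondins 4 were higher: Rspo1 was 7.35-fold higher (6.04 to 8.97) at 61.0 against 8.30 CPM, beside Rspo3, Rspo4 and Wnt11 (3.41-fold, 2.52 to 4.62). Wnt16, 2.01-fold lower (1.75 to 2.33), and Wnt9a, 1.71-fold lower (1.11 to 2.74), were the other 2 past 1.5-fold. Of 16 measured receptors Fzd1 was 2.00-fold higher, while Fzd9 (1.67-fold), Lgr5 and Lgr6 (2.03-fold) were lower. Of 12 measured inhibitors 4 were higher (Dkk2 2.56-fold, Sfrp1 2.54-fold, Sfrp2 and Sostdc1) and 3 lower (Dkk1 1.92-fold, Frzb 1.73-fold, Sfrp4 2.08-fold). Sostdc1 was lower after depth matching, at a log2 difference of -0.51, and 1 cell held 34.2% of its UMIs. Among 10 effectors and targets, Axin2 (1.63-fold), Nkd1 (2.53-fold) and Nkd2 (2.83-fold), feedback genes that Wnt signalling switches on, were higher and none was lower. After depth matching 3 of these 10 were higher and 1 was lower.

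BMP and TGF-beta genes were the largest list, with 11 of 34 measured members higher and 2 lower. The ligands Bmp2 and Bmp4 were each 2.31-fold higher, at 109 against 47.3 CPM and 124 against 53.7 CPM. Bmp7 stood at 12.6 against 1.16 CPM, 10.8-fold (6.55 to 18.6), and Gdf6 at 17.0 against 1.16 CPM, 14.6-fold (9.03 to 24.8). The antagonists Fst, follistatin, at 473 against 85.2 CPM (5.54-fold, 5.20 to 5.91), and Chrd, chordin (1.59-fold), were higher as well. Inhibin subunits differed in direction, with Inhbb 4.10-fold higher (3.40 to 4.95) and Inhba 1.95-fold lower (1.75 to 2.17). Bmp3 was 3.26-fold higher here, but stood at 0.670-fold (0.364 to 1.17) in the Lmx1b library.

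In the insulin-like growth factor axis 4 of 10 measured members were higher and 0 lower, with a median of 0.53. Igfbp5, a binding protein that holds these factors in the matrix, stood at 4992 against 1308 CPM, 3.82-fold (3.75 to 3.88), with medians over cells of 4676 and 488 CPM. Igfbp2 was 8.41-fold higher (7.85 to 9.02), the growth factor Igf2 5.20-fold (4.63 to 5.83) and Igfbp4 1.83-fold. Among 17 FGF and PDGF genes 5 were higher, including Fgf10 (2.45-fold), Fgf7 (2.13-fold) and Fgf2 (3.98-fold, 3.00 to 5.29), and Pdgfb was 1.72-fold lower, with a log2 difference of -0.01 after depth matching. Of 9 hedgehog genes the coreceptors Boc (1.68-fold), Cdon (2.09-fold) and Gas1 (2.30-fold) were higher, while the target Gli1 was level at 21.6 against 22.2 CPM. After depth matching 3 hedgehog genes were higher and 1 was lower. Of 11 retinoic acid genes 5 were higher, among them Crabp2 (2.92-fold) and the catabolic enzyme Cyp26b1 (1.91-fold), and Rbp4 was lower (1.56-fold).

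Of 26 measured limb patterning transcription factors 8 were higher and 2 lower. Emx2 stood at 21.8 against 1.88 CPM, 11.6-fold (7.85 to 17.5), and Shox2, a regulator of proximal limb growth, at 44.5 against 7.08 CPM, 6.29-fold (5.05 to 7.85). Alx4 (3.37-fold) and Pitx1, the hindlimb identity factor (3.14-fold, 2.67 to 3.69), were among the higher ones, as were Tbx4, Msx1 and Msx2. Tbx18 (2.12-fold) and Irx5 (1.85-fold) were lower. Partners in dorsoventral patterning added little. Wnt7a, the dorsal ectodermal signal upstream of Lmx1b in the embryo, had no UMI on either side, and En1 had 0.185 against 0.830 CPM. The paralogue Lmx1a had 0 UMIs in expressing cells and 6 in the others, too few for a fold. Lhx2 was 2.11-fold lower and Ssbp2 1.93-fold higher among the 11 measured members.

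Epha5 and Sema3a were not alone among guidance genes. Of 15 measured Eph receptors and ephrins 4 were higher and 0 lower, with Epha7 at 3.75-fold, Ephb6 at 2.98-fold and Efnb2 at 2.06-fold. Of 18 axon guidance genes 5 were higher, among them Ntng1 (4.74-fold, 3.54 to 6.38), Robo2 (2.62-fold) and Ntn1 (2.17-fold). Sema3d and Unc5b were lower, 1.63-fold and 1.54-fold.

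Bone genes lay on the non-expressing side. None of 14 measured osteogenic genes was higher and 9 were lower, with a median log2 difference of -0.78 (-0.86 depth matched, -4.93 in the Lmx1b library, where 11 were lower). After depth matching 1 was higher and 9 were lower. Sp7, the osteoblast transcription factor, was 1.82-fold lower (1.62 to 2.06) with 58.6 against 107 CPM and was detected in 38.2% against 71.9% of cells. Panx3 (1.77-fold), Phex (1.64-fold) and Smpd3 (1.88-fold) were lower too. Bglap, osteocalcin, was 2.37-fold lower, but 1 cell held 43.6% of its UMIs on the non-expressing side, and reads of Bglap and its near-identical copy Bglap2 may be split uncertainly. Runx2, at 132 against 164 CPM, and Alpl, at 823 against 1111 CPM, did not reach 1.5-fold. Without cluster 1 the list's median was -0.36, and among cells with at least 1600 CPM tdTomato it was -0.31.

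Matrix and connective tissue genes were split. In the extracellular matrix list 4 of 29 were higher and 4 lower. Vcan, versican, stood at 705 against 190 CPM, 3.70-fold (3.54 to 3.88), with Tnxb (4.86-fold), Eln (1.68-fold) and Fbln5 (1.61-fold), while Col6a2, Col6a3, Fbn2 and Npnt were lower. The small proteoglycan Dcn, decorin, was 2.07-fold higher at 5098 against 2461 CPM. Among 12 tendon and joint genes 4 were higher and 4 lower, with the tendon membrane protein Tnmd 6.25-fold higher (5.70 to 6.84), Comp 1.78-fold and Prg4 lower. Cartilage markers summed to 2073 against 3538 CPM, Acan being 1.72-fold lower (1.66 to 1.79). Genes reported from digit tip blastemas stood on both sides, with 4 of 14 higher (Gldn, Igf2, Mdk and Mest) and 4 lower (Acan, Cthrc1, Fbn2 and H19), or 4 and 2 after depth matching. Dermal and adventitial fibroblast genes had 3 of 15 higher and 3 lower (7 and 3 after depth matching), and matrix remodelling genes 3 of 23 each way, with Mmp3 3.53-fold higher (1.09-fold in the Lmx1b library) and Timp1 1.83-fold lower.

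Summed over cells, 0 of 14 cell cycle genes were higher and 8 lower, with a median of -0.63. The level of the whole list in single cells had a median of 63.2 against 55.1 CPM in expressing and non-expressing cells. Its upper quartile was 124 against 103 CPM, so both values were higher in expressing cells. With the mean of each cell in place of sums, the list's median log2 difference was -1.05, in the direction of the sums. Ccnb1, cyclin B1, stood at 4.07 against 15.7 CPM, 3.85-fold lower (2.50 to 6.25), and Cenpf, a kinetochore protein, at 17.9 against 36.8 CPM, 2.05-fold (1.65 to 2.56). As a count of cells the difference was small: 22 of 144 expressing cells (15.3%, interval 9.83 to 22.2) and 84 of 441 non-expressing cells (19.05%, 15.5 to 23.0) had at least 2 UMIs of Mki67, Top2a, Cdk1, Ccnb1, Cenpf and Ube2c together. After thinning the shares were 5.56% (2.43 to 10.7) and 10.2% (7.54 to 13.4), with intervals that overlapped. Within clusters 1, 3, 4 and 5 the list's median was 0.26, 0.34, 0.65 and 2.02, over 3 to 10 measured members. The medians of all measured genes there were -0.001, 0.004, 0.06 and 0.22. The list's median was 0.66 when both sides were weighted to the same mix of clusters. In the Lmx1b library it was 0.94, beside 0.21 over all measured genes.

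Genes that respond to tissue dissociation were higher too. Of 14 measured members 10 were higher and 0 lower, with a median of 0.66 (6 and 1 after depth matching, median 0.55), and Fos stood at 1317 against 668 CPM (1.97-fold, 1.91 to 2.03). Hspa1a (3.25-fold) and Hspa1b (2.58-fold), near-identical heat shock genes whose reads may be split uncertainly, and Nr4a1 (2.47-fold) were the largest. Their part in the other differences was not tested. Inflammation genes had 4 of 7 higher, led by the chemokine Cxcl14 at 730 against 209 CPM (3.49-fold, 3.33 to 3.65), but the list's median was 0.69 with and -0.035 without suspected doublets. Hypoxia and glycolysis genes had 1 of 10 higher, Vegfa (1.59-fold), and 0 lower, with a median of -0.29 (0 higher and 1 lower after depth matching).

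**Figure D5:**
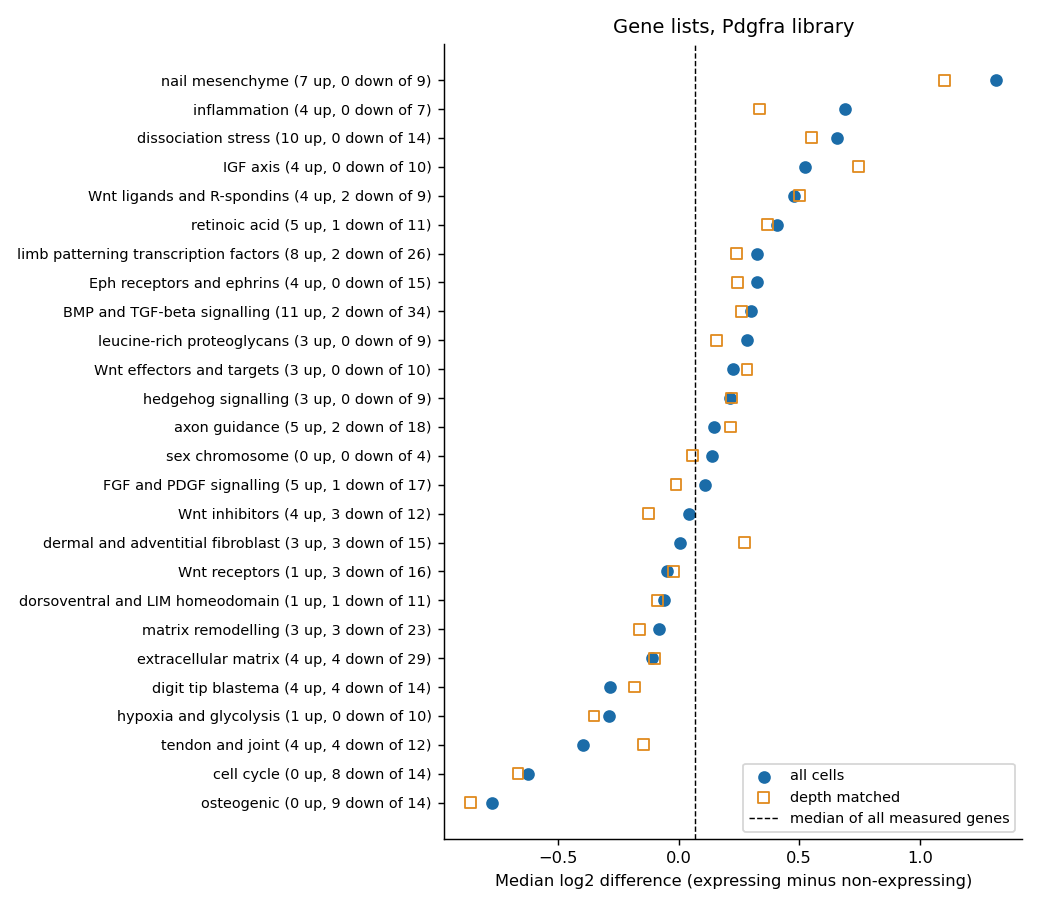
Median log2 difference, expressing minus non-expressing with a pseudocount of 1 CPM, of the measured members of 26 gene lists in the Pdgfra library, for all cells (filled) and after depth matching (open squares), with the numbers of members at 1.5-fold or more in each direction. The dashed line is the median of all measured genes, 0.07. The nail mesenchyme list is farthest to the right at 1.32 and the osteogenic list farthest to the left at -0.78. The lists were chosen with earlier results of these data known.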

How the data were processed

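The authors deposited unnormalized UMI counts of 28001 features per barcode. Per the file headers these came from Cell Ranger 4.0.0. The reference was mm10 with a tdTomato sequence, per the labels' protocols. How barcodes were called as cells is not given in the sources used here. The Pdgfra library had 5032 barcodes and 49084751 UMIs and the Lmx1b library 5991 barcodes and 66867027 UMIs. In the Pdgfra library 2374 barcodes passed the limits on genes and mitochondrial UMIs, 1179 of these had 10000 UMIs, 844 of these passed on collagen and 585 of these on Pdgfra. In the Lmx1b library 892 cells passed all, 45 with an Lmx1b UMI.

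Here, counts were summed over cells and given as CPM with numpy 2.4.6, scipy 1.17.1 and pandas 2.3.3. Folds carry exact 95% intervals of a ratio of Poisson counts, and shares exact Clopper-Pearson intervals. PCR duplicates were already merged by UMI. Log2 differences used a pseudocount of 1 CPM. Clusters were made with scanpy 1.11.5 on 2000 variable genes, 20 components, 15 neighbours and Leiden resolution 0.6. Endothelial and macrophage barcodes were called at 5 UMIs of their markers per 10000 with no Pdgfra UMI, under the same limits on genes, mitochondrial share and total UMIs. Doublets, scored with Scrublet in scanpy, were left in: its automatic threshold marked 0 barcodes, so the highest-scoring 0.8% per 1000 barcodes (203, of which 9 were expressing and 22 non-expressing cells) were taken out only as an alternative. The fold and interval code was tested on simulated data.

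Named genes were, in each direction, the 14 whose interval bound nearest 1 was farthest from it, with a mean of at least 20 CPM, 1.5-fold after depth matching and at most 25% of UMIs from 1 cell, leaving out genes of the rule, tdTomato, mitochondrial, Xist and Y-linked genes. Members of lists at 1.5-fold were named beside them, and others as examples chosen after their values were seen. The cells, the 26 gene lists and the 12 marker lists were chosen with earlier results of these data known, and lists share members. Ccn1, Ccn2 and Trbc1 were not found under those symbols. Alternatives were 15 planned settings and 3 chosen after seeing the data.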

Additional observations from a re-analysis of the deposited data

Results flagged for a closer look

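Summed over cells, cell cycle genes differed between expressing and non-expressing cells in opposite directions in the 2 libraries. The list's median log2 difference was -0.63 in the Pdgfra library and 0.94 in the Lmx1b library, where 11 of 13 measured members were higher. Over all measured genes of the Lmx1b library 21.1% were higher and the median was 0.21. In the Lmx1b library Cenpf was 3.59-fold higher (2.96 to 4.31), Cdk1 2.20-fold (1.73 to 2.76), Ccnb2 2.20-fold (1.62 to 2.93) and Ccnb1 2.03-fold (1.501 to 2.69), while all 4 were over 1.5-fold lower in the Pdgfra library. The difference between the libraries was not tested, each line having 1 library. The Lmx1b library had 45 expressing cells, of which 4 (8.89%, interval 2.48 to 21.2) had at least 2 UMIs of the 6 mitotic genes, against 122 of 847 (14.4%, 12.1 to 17.0). By that count both libraries went the same way, with 15.3% against 19.05% in the Pdgfra library, and the intervals overlapped in each. In the Lmx1b library Cdk1 was detected in 13.3% of expressing and 17.0% of non-expressing cells and Ccnb2 in 8.89% and 9.21%. Cenpf, with 133 UMIs on the expressing side, was detected in 11.1% and 7.91%, and Ccnb1 in 13.3% and 7.56%. Without cells with an Xist UMI, 32 cells against 817, the list's median in the Lmx1b library was 0.57. Neither the median nor the share of genes higher over all genes is given for that smaller split, so it has no background to be read against.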

How the results depend on the processing

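The share of expressing cells, 24.6%, was 14.0% after thinning, 19.8% when 1000 genes and 5% mitochondrial UMIs were the limits, 17.7% with no Pdgfra UMI required, 28.7% among cells with at least 1600 CPM tdTomato and 13.7% without cluster 1. Numbers of genes at 1.5-fold, 801 higher and 324 lower, were 2144 and 1255 after thinning, 1671 and 776 with at least 2 Lmx1b UMIs, 1267 and 669 with the mean of each cell, 1720 and 906 with 1000 genes and 5%, 340 and 147 measured at 20 CPM, 379 and 162 without cluster 1, and 2080 and 1146 with Lmx1b at 50 CPM or more. With the same mix of clusters 504 were higher, and with no Pdgfra UMI required 508 were lower. These are counts and not shares: the number of measured genes, which the 20 CPM limit reduces, is not given for each setting. Settings with fewer cells or UMIs also carry more counting error. The counts alone therefore do not show whether the difference between the sides grew or shrank. Thinning also split the cells anew, into 82 expressing and 503 non-expressing cells of 10000 UMIs each. Both the cells and the counts behind each fold were therefore other than in the main comparison.

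The nail mesenchyme median was 0.67 with the same mix of clusters and 1.98 with Lmx1b at 50 CPM or more. The osteogenic median was -2.71 after thinning, -1.60 with at least 2 Lmx1b UMIs, -1.47 with the mean of each cell and -2.20 with Lmx1b at 50 CPM or more. The cell cycle median was -1.88 after thinning, -2.36 with at least 2 Lmx1b UMIs, -3.38 with 1000 genes and 5%, -2.76 with Lmx1b at 50 CPM or more, and 0.66 with the same mix of clusters. The inflammation median was -0.069 with no Pdgfra UMI required and -0.035 without suspected doublets. Npnt was at 0.23 with the same mix of clusters and Enpp1 at 0.12 with 1000 genes and 5%. The causes were not tested. Of the 28 named genes 16 kept 1.5-fold with the same mix of clusters, 25 with 1000 genes and 5% (23 against 93 cells), 25 at 1600 CPM tdTomato, 26 without cluster 1 and 28 under each of the other 14 settings. The same mix of clusters rests on a grouping by variable genes of these same cells, which can itself level such genes.

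No paired analysis was possible because each line had 1 library. An Lmx1b UMI marks a cell only as far as its depth allows, and 71 expressing cells rest on a single UMI. Cells of these sums are not independent animals.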
